A study of Arabidopsis with 22 samples.

Results

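The genes described here are 9 regulators at the core of jasmonate (JA) signaling in Arabidopsis: the receptor gene *COI1*, the corepressor adaptor gene *NINJA*, the activator genes *MYC2*, *MYC3* and *MYC4*, the repressor genes *JAM1*, *JAM2* and *JAM3*, and *ORA47*. They were picked by locus for their roles in the pathway, and each was found once among the 25218 transcripts measured: *COI1* (AT2G39940, chromosome 2), *NINJA* (AT4G28910, chromosome 4), *MYC2* (AT1G32640, chromosome 1), *MYC3* (AT5G46760, chromosome 5), *MYC4* (AT4G17880, chromosome 4), *JAM1* (AT2G46510, chromosome 2), *JAM2* (AT1G01260, chromosome 1), *JAM3* (AT4G16430, chromosome 4) and *ORA47* (AT1G74930, chromosome 1). RNA was sequenced from whole plants, 25 days old and grown in 12 h light and 12 h dark, of the genotypes *acd6-1lux-1*, *acd6-1*, *lux-1* and Col-0, collected at ZT1 and ZT13, which are 1 and 13 h after light onset. These genotypes and times made 8 groups and 22 libraries, with biological triplicates in 6 groups and duplicates in *acd6-1lux-1* and *acd6-1* at ZT13. *LUX* encodes an evening transcription factor of the circadian clock, and *lux-1* carries a point mutation that stops its translation early. *acd6-1* is a gain-of-function allele that activates salicylic acid (SA) defense in the absence of a pathogen and makes the plants small, *acd6-1lux-1* carries both alleles, and Col-0 is the wild type. All plants were untreated, so no JA was applied in any group.

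JA-isoleucine joins the F-box protein COI1 to JAZ repressor proteins, which are then ubiquitinated and degraded. Before that, JAZ proteins hold MYC transcription factors inactive by recruiting TOPLESS corepressors through NINJA. MYC2, MYC3 and MYC4 are bHLH activators with overlapping roles, and JAM1, JAM2 and JAM3 are related bHLH proteins that bind the same DNA motif and repress. ORA47 is an AP2/ERF factor that activates JA biosynthesis genes and is itself induced by wounding and JA.

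The values are RPKM, reads scaled to a length for each transcript and to the mapped reads of the library, as the authors deposited them. Changes are differences of log2(RPKM + 1), which understate the change of weakly expressed genes, with the standard error (SE) of 1 limma model over all libraries. A gene passed at a Benjamini-Hochberg adjusted p under 0.1 over the 21666 genes tested, whose mean exceeded 0.3 RPKM in at least 1 group, and all 9 regulators were among those. Paralogs such as the *MYC* genes could share reads, and how the authors counted such reads is not given in the sources used here. In RNA from whole plants, fewer cells of a type and less RNA per cell cannot be told apart.

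Mapped reads ranged from 10306552 to 16224975 per library. In 1 library, *acd6-1lux-1* ZT1 replicate 3, only 60.51% of reads mapped, against 79.84% to 81.59% in the other 21 libraries. Results of the 9 regulators that it entered are also given without it where that changed a call. Genes of the other lists below were tested only in the model of all libraries, so their calls without it are not known. The *LUX* transcript, which carries the point mutation and need not be lost, lay between 65.3 and 70.8 RPKM in *acd6-1lux-1* against 6.10 to 8.17 RPKM in *acd6-1* at ZT13, and between 71.4 and 81.0 RPKM in *lux-1* against 6.10 to 6.84 RPKM in Col-0. Leaf markers (*RBCS1A*, *LHCB1.2*, *RCA*) summed to at least 13456 RPKM in every library. The 4 root markers at ZT1 summed to 65.3 to 76.4 RPKM in *acd6-1lux-1* and 62.4 to 119 RPKM in *acd6-1*, and to 118 to 194 RPKM in *lux-1* and 82.6 to 121 RPKM in Col-0. At ZT13 they summed to 53.3 to 93.7 RPKM in *acd6-1lux-1* and 73.1 to 233.7 RPKM in *acd6-1*, and to 184 to 220.1 RPKM in *lux-1* and 119 to 127 RPKM in Col-0. The 5 floral markers at ZT1 summed to 1.58 to 15.6 RPKM in *acd6-1lux-1* and 5.47 to 8.19 RPKM in *acd6-1*, and to 3.91 to 19.3 RPKM in *lux-1* and 1.88 to 4.54 RPKM in Col-0. At ZT13 they summed to 15.4 to 25.3 RPKM in *acd6-1lux-1* and 2.97 to 3.98 RPKM in *acd6-1*, and to 13.9 to 32.9 RPKM in *lux-1* and 1.17 to 4.55 RPKM in Col-0. None of these markers was at 0 in all libraries, and the part of the root and floral markers in the changes of the 9 regulators was not tested.

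Over the 22 libraries, *MYC2* had the highest mean level of the 9 regulators, 261 RPKM, above that of 97.2% of the genes tested. *ORA47* followed with 169 RPKM and *JAM1* with 71.4 RPKM. *NINJA* (50.01 RPKM), *MYC3* (44.0 RPKM), *JAM3* (26.4 RPKM), *COI1* (23.6 RPKM) and *MYC4* (15.98 RPKM) lay below these, and *JAM2* was the lowest with 9.85 RPKM. *ORA47* covered the widest range among libraries, 6.99 to 294 RPKM, while *JAM2* stayed between 8.03 and 13.1 RPKM. RPKM is scaled to transcript length, so these levels can be set side by side.

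At ZT1, *ORA47*, *MYC2* and *JAM1* were lower in the plants with *lux-1*, in both backgrounds. Of the 3, *ORA47* was lower by the most and *JAM1* by the least on average in the wild-type background. The libraries of *lux-1* and Col-0 at ZT1 did not overlap for 8 of the 9 regulators and for 33.8% of all genes tested. Those of *acd6-1lux-1* and *acd6-1* at ZT1 did not overlap for 6 regulators and for 36.9% of all genes. At ZT13 none of the 9 regulators passed in either background. The comparison of *lux-1* with Col-0, and of *acd6-1lux-1* with *acd6-1*, addresses the contribution of *LUX* to defense gene expression.

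*ORA47* had 6.99, 8.20 and 11.6 RPKM in the *lux-1* libraries at ZT1, against 163, 220 and 222 RPKM in Col-0. The mean was 22.5-fold lower in *lux-1*, and the groups were far apart (log2 change -4.36, SE 0.23, adjusted p = 1.1e-09). In *acd6-1lux-1* at ZT1 it had 34.4, 49.0 and 65.3 RPKM, against 166, 227 and 268 RPKM in *acd6-1*. This fall was 4.45-fold in mean RPKM (log2 change -2.15, SE 0.23, adjusted p = 7.2e-06), and each *acd6-1lux-1* library still lay above each *lux-1* library. The fall was smaller in the *acd6-1* background than in the Col-0 background by 2.21 on the log2 scale (SE 0.33, adjusted p = 0.0011).

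*MYC2*, the main activator of the wound and JA response, had 114, 119 and 152 RPKM in *lux-1* at ZT1, against 214, 240 and 274 RPKM in Col-0. It was 1.89-fold lower in *lux-1* without overlap between libraries (log2 change -0.92, SE 0.16, adjusted p = 0.00087). In *acd6-1lux-1* at ZT1 it had 112, 126 and 126 RPKM, against 272, 365 and 366 RPKM in *acd6-1*, and was 2.76-fold lower (log2 change -1.44, SE 0.16, adjusted p = 8.2e-06). The fall of *MYC2* did not differ between backgrounds beyond the threshold (difference -0.52, SE 0.22, adjusted p = 0.14). The mean *MYC2* level at ZT1 was 121 ± 8.33 RPKM for *acd6-1lux-1*, against 128 ± 20.8 RPKM for *lux-1* (SD, n = 3 each).

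Over the 22 libraries, *JAM1* had the highest mean of the repressor genes. In *acd6-1lux-1* at ZT1 the mean of *JAM3* was higher, 33.2 RPKM against 31.4 RPKM for *JAM1*. *JAM1* had 27.1, 27.3 and 38.8 RPKM in *lux-1* at ZT1, against 43.7, 48.8 and 59.3 RPKM in Col-0 (log2 change -0.70, SE 0.15, adjusted p = 0.0064). The groups did not overlap, and the mean was 1.63-fold lower in *lux-1*. In *acd6-1lux-1* at ZT1 it had 29.7, 30.2 and 34.2 RPKM, against 66.0, 95.5 and 99.3 RPKM in *acd6-1* (log2 change -1.42, SE 0.15, adjusted p = 7.4e-06). The fall was larger in the *acd6-1* background by 0.72 on the log2 scale (difference -0.72, SE 0.22, adjusted p = 0.048), a call that was lost when any of 6 single libraries at ZT1 was left out (*acd6-1lux-1* replicate 2, *acd6-1* replicate 2 or 3, *lux-1* replicate 1, Col-0 replicate 1 or 2), with an adjusted p of up to 0.12, or when only the compared libraries were fitted. Without *acd6-1lux-1* ZT1 replicate 3 it passed (-0.79), and *MYC4* differed between backgrounds as well (0.47, adjusted p = 0.093).

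**Figure D1:**
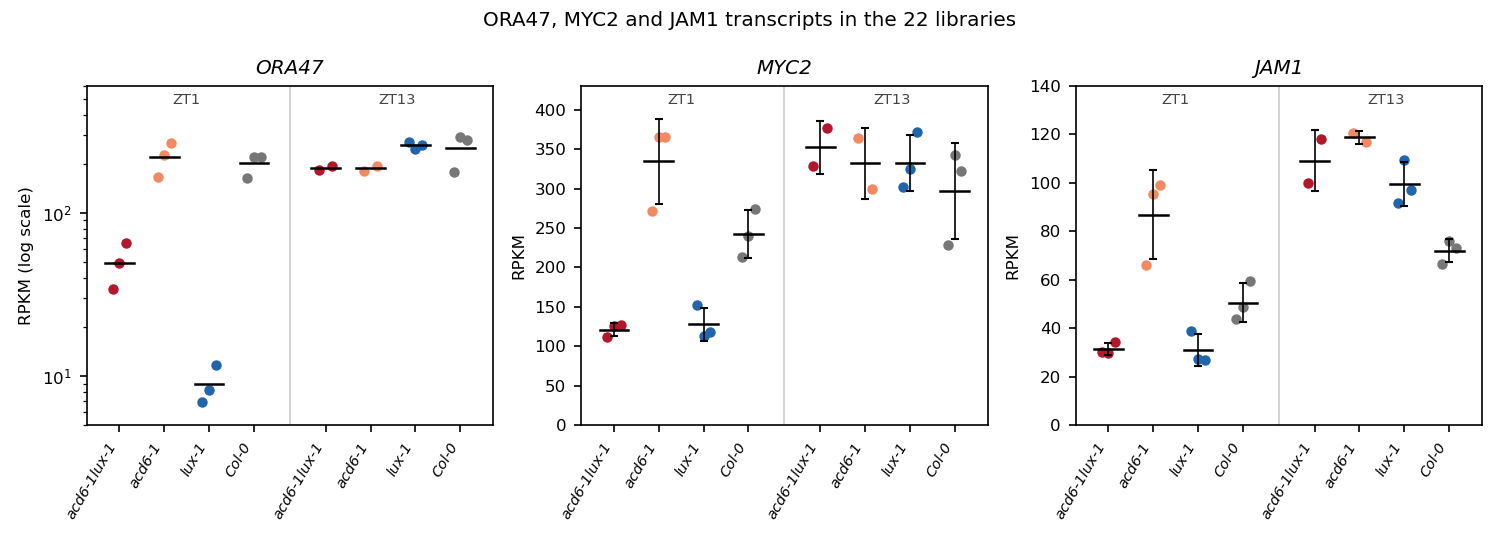
RPKM of *ORA47* (log scale), *MYC2* and *JAM1* in each library at ZT1 and ZT13, with group means as horizontal bars and, for *MYC2* and *JAM1*, the SD as error bars (n = 3, or 2 for *acd6-1lux-1* and *acd6-1* at ZT13). At ZT1 the *acd6-1lux-1* points lie below all *acd6-1* points and the *lux-1* points below all Col-0 points, while at ZT13 the points of the genotypes with and without *lux-1* overlap in each background, except those of *JAM1* in *lux-1* and Col-0.

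A list of 10 touch and wounding genes, which respond within minutes to handling, was also lower at ZT1 in the plants with *lux-1*. At ZT1, all 10 were lower in *acd6-1lux-1* than in *acd6-1*, 9 of 10 were lower in *lux-1*, set against 10.9% and 4.61% of all genes called lower, and none passed at ZT13 in either background. Their summed level at ZT1 was 1526 to 2265 RPKM in *acd6-1lux-1* against 4122 to 5007 RPKM in *acd6-1*, and 389.6 to 607.8 RPKM in *lux-1* against 1642 to 1842 RPKM in Col-0. The median change of the list was -1.58 in the *acd6-1* background and -2.57 in the Col-0 background, where that of all genes tested was 0.09 and 0.08. The C2H2 zinc-finger genes *ZAT10* (log2 change -2.84, adjusted p = 1.3e-09) and *ZAT12* (-2.34, adjusted p = 3.4e-09) and the calmodulin-like gene *TCH2* (-1.94, adjusted p = 1.5e-09) were lower in *lux-1*. In *acd6-1* against Col-0 at ZT1, 8 of the 10 were higher and none lower, set against 37.2% and 31.0% of all genes. *MYC2* and *JAM1* were higher there too, and *ORA47* did not pass. At ZT13, 8 were higher and 1 lower, set against 22.3% and 26.5%, and of the 3 regulators only *JAM1* passed. The falls of *ORA47*, *MYC2* and *JAM1* with *lux-1* and those of the touch and wounding genes were seen in the same libraries. The part of a touch or wounding response in the changes of the 3 regulators was not tested.

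At ZT1 *MYC4* was higher in *acd6-1lux-1*, with 19.1, 22.8 and 24.9 RPKM, against 11.1, 13.4 and 15.5 RPKM in *acd6-1* (log2 change 0.70, SE 0.13, adjusted p = 0.00084). In *lux-1* it had 26.4, 28.2 and 29.0 RPKM, against 20.7, 21.3 and 23.8 RPKM in Col-0, which did not pass (log2 change 0.33, SE 0.13, adjusted p = 0.10) but did in 9 of 36 other settings, among them leaving out *acd6-1lux-1* ZT1 replicate 3. Its libraries did not overlap in either background, which held for 36.9% of all genes in *acd6-1lux-1* against *acd6-1* and 33.8% in *lux-1* against Col-0.

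*MYC3* had 34.0, 35.7 and 38.5 RPKM in *lux-1* and 27.7, 27.8 and 30.2 RPKM in Col-0 (log2 change 0.32, SE 0.09, adjusted p = 0.029). *JAM3* had 23.5, 25.0 and 31.2 RPKM in *lux-1* and 19.4, 19.5 and 23.0 RPKM in Col-0 (log2 change 0.34, SE 0.10, adjusted p = 0.031). *NINJA* had 46.3, 51.9 and 54.6 RPKM in *lux-1* and 42.1, 42.3 and 42.9 RPKM in Col-0 (log2 change 0.26, SE 0.10, adjusted p = 0.094). All 3 rises were lost with median-of-ratios scaling, which lowers the median change of all genes to 0.00, and in tests on recovered reads, and also without Col-0 ZT1 replicate 2 or *lux-1* ZT1 replicate 1. The *JAM3* call was lost without Col-0 ZT1 replicate 3 too, and that of *NINJA* in 25 of 36 other settings. *COI1* did not pass in either background, with 27.7, 28.7 and 31.1 RPKM in *acd6-1lux-1* and 27.5, 28.8 and 31.3 RPKM in *acd6-1* at ZT1, and 20.9, 21.0 and 24.2 RPKM in *lux-1* and 19.9, 22.1 and 22.4 RPKM in Col-0. *JAM2* passed in *acd6-1lux-1*, with 10.9, 11.1 and 13.1 RPKM, against 9.50, 10.01 and 10.03 RPKM in *acd6-1* (log2 change 0.23, SE 0.09, adjusted p = 0.086). This rise was lost in 12 of 36 other settings, among them leaving out *acd6-1lux-1* ZT1 replicate 1, any *acd6-1* ZT1 replicate or Col-0 ZT1 replicate 1, and *JAM2* did not pass in *lux-1* (0.14, adjusted p = 0.36).

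At ZT1, 3 regulators were higher in *lux-1* and 3 were lower, where 13.2% of all genes tested were higher and 4.61% lower. In the *acd6-1* background 2 were higher and 3 lower, where 22.8% of all genes were higher and 10.9% lower. Without *acd6-1lux-1* ZT1 replicate 3, *NINJA* (log2 change 0.31) and *JAM3* (0.25) also passed there, and *ORA47*, *MYC2*, *JAM1*, *MYC4* and *JAM2* still passed. Of all calls, 74.1% were higher in *lux-1* and 67.6% in *acd6-1lux-1*, and with median-of-ratios scaling 47.2% and 42.4%. The falls of *ORA47*, *MYC2* and *JAM1* in both backgrounds and the rise of *MYC4* in *acd6-1lux-1* passed in the same direction in all 36 other settings.

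At ZT13 no regulator passed in *acd6-1lux-1* against *acd6-1*, where 1.15% of all genes were higher and 0.346% lower, and none had an unadjusted p under 0.05. None passed in *lux-1* against Col-0 either, where 2.08% were higher and 1.85% lower, and 1 regulator had an unadjusted p under 0.05. This was *JAM1*, with 91.9, 97.0 and 109 RPKM in *lux-1*, against 66.7, 72.9 and 76.1 RPKM in Col-0 (log2 change 0.46, SE 0.15, adjusted p = 0.14). On recovered reads, DESeq2 passed 1 regulator with the Col-0 background and 0 with the *acd6-1* background, and edgeR and voom passed 0 with either. *ORA47* had 246, 260 and 273 RPKM in *lux-1* and 178, 280 and 294 RPKM in Col-0 at ZT13 (log2 change 0.08, SE 0.23, adjusted p = 0.94), with overlapping libraries. *MYC2* had 302, 325 and 372 RPKM in *lux-1* and 228, 322 and 342 RPKM in Col-0 (log2 change 0.18, SE 0.16, adjusted p = 0.72). With 2 replicates per group, the *acd6-1* background allowed less precision, with an SE of 0.28 for *ORA47* and 0.19 for *MYC2*.

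**Figure D2:**
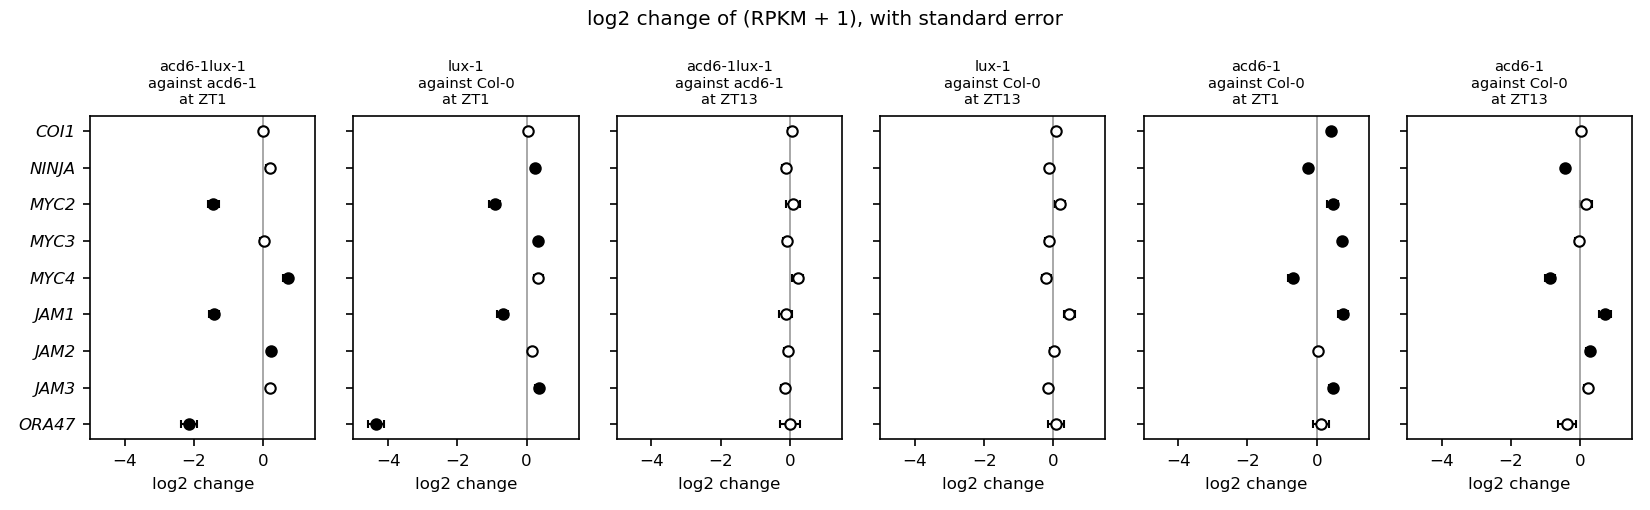
log2 change of (RPKM + 1) of the 9 regulators in the 6 genotype comparisons, with the SE as horizontal bars. Filled points have an adjusted p under 0.1 and open points do not, and both ZT13 panels with *lux-1* hold only open points.

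The effect of *lux-1* was compared between the times of day in 1 model. In the Col-0 background the *lux-1* effect at ZT1 was lower than at ZT13 for *ORA47* (difference -4.45, SE 0.33), *JAM1* (-1.16, SE 0.22) and *MYC2* (-1.10, SE 0.22). It was higher at ZT1 for *MYC3* (0.46), *MYC4* (0.54) and *JAM3* (0.50), so that 6 of 9 regulators passed in either direction, where 13.1% of all genes did, but these 3 were lost with median-of-ratios scaling and in tests on recovered reads. *NINJA* did not pass here (0.37, adjusted p = 0.10). It did pass in some other settings, among them the filter at 1 RPKM and the fit to the compared libraries alone. Leaving out *acd6-1lux-1* ZT1 replicate 3, which is not in this contrast, was another (0.37, adjusted p = 0.037). In the *acd6-1* background *ORA47* (difference -2.16, SE 0.36), *MYC2* (-1.53, SE 0.25) and *JAM1* (-1.29, SE 0.24) passed, where 6.84% of all genes did, and without *acd6-1lux-1* ZT1 replicate 3 *NINJA* (0.43) and *MYC4* (0.58) passed too. Between the 2 backgrounds, *ORA47* and *JAM1* differed at ZT1, where 16.0% of all genes did. No regulator differed between backgrounds at ZT13, where 0.586% of all genes did and 2 regulators had an unadjusted p under 0.05, and voom, edgeR and DESeq2 on recovered reads also called 0. Median-of-ratios scaling moved the share of all such calls that were positive to 43.5% from 71.5% for times in the Col-0 background, to 41.5% from 54.3% for times in the *acd6-1* background and to 37.3% from 58.3% for backgrounds at ZT13.

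The defense mutant *acd6-1*, in which SA defense is active, was compared with Col-0, and the part of SA in the differences was not tested. At ZT1, 5 regulators were higher (*COI1*, *MYC2*, *MYC3*, *JAM1*, *JAM3*) and 2 lower (*NINJA*, *MYC4*), set against 37.2% of all genes called higher and 31.0% called lower. In the evening samples *JAM1* and *JAM2* were higher and *NINJA* and *MYC4* lower, set against 22.3% called higher and 26.5% called lower. With quantile normalization the share of calls that were higher at ZT1 was 41.2%, against 54.5% here. The leaf markers moved with this comparison, with summed levels of 18250 to 21244 RPKM in *acd6-1* against 38777 to 42116 RPKM in Col-0 at ZT1, and of 13456 to 15964 RPKM in *acd6-1* against 24785 to 27360 RPKM in Col-0 at ZT13. Their part in the changes of the regulators was not tested.

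*MYC4* was lower in *acd6-1* at both times. At ZT1 it had 11.1, 13.4 and 15.5 RPKM in *acd6-1*, against 20.7, 21.3 and 23.8 RPKM in Col-0 (log2 change -0.69, SE 0.13, adjusted p = 0.00017). At ZT13 it had 5.54 and 7.03 RPKM in *acd6-1*, against 11.8, 12.0 and 12.8 RPKM in Col-0 (log2 change -0.86, SE 0.14, adjusted p = 0.00011). No *acd6-1* library reached a Col-0 library at the same time, and *MYC4* in *acd6-1lux-1* at ZT1 overlapped Col-0 at ZT1. Such a lack of overlap between *acd6-1* and Col-0 held for 70.8% of all genes at ZT1 and 62.3% at ZT13. Of the 9 regulators it held for 6 at ZT1 and 5 at ZT13.

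*JAM1* was higher in *acd6-1* at both times, by 0.76 at ZT1 (SE 0.15, adjusted p = 0.00034) and by 0.72 at ZT13 (SE 0.17, adjusted p = 0.0025). At ZT13 the *acd6-1* libraries had 117 and 121 RPKM, against 66.7, 72.9 and 76.1 RPKM in Col-0. *NINJA* was lower at both times, with log2 changes of -0.24 at ZT1 (adjusted p = 0.039) and -0.43 at ZT13 (adjusted p = 0.0036). Each of these *NINJA* calls was lost when 1 library was left out, *acd6-1* ZT1 replicate 2 (adjusted p = 0.13) or *acd6-1* ZT13 replicate 2 (adjusted p = 0.11). *JAM2* passed at ZT13 (0.28, SE 0.10, adjusted p = 0.042) but not without Col-0 ZT13 replicate 2 or *acd6-1* ZT13 replicate 1. *JAM3* passed at ZT1 (0.46, adjusted p = 0.00056) but not at ZT13 (0.22, adjusted p = 0.13). At ZT13 it did pass with median-of-ratios scaling, voom, edgeR and DESeq2, and its difference between times did not pass (0.25, adjusted p = 0.24). *ORA47* did not pass at ZT1 (0.12, adjusted p = 0.68) or ZT13 (-0.38, adjusted p = 0.25). *MYC2* was higher at ZT1 (0.46, SE 0.16, adjusted p = 0.018), with 1 pair of overlapping libraries, 272 RPKM in *acd6-1* and 274 RPKM in Col-0.

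*MYC3* and *COI1* were higher in *acd6-1* at ZT1 and not at ZT13. *MYC3* had 44.1, 47.4 and 53.3 RPKM in *acd6-1* at ZT1, against 27.7, 27.8 and 30.2 RPKM in Col-0 (log2 change 0.73, SE 0.09, adjusted p = 2.1e-06). At ZT13 it had 49.6 and 49.7 RPKM in *acd6-1* and 49.0, 50.2 and 53.6 RPKM in Col-0 (log2 change -0.03, SE 0.10, adjusted p = 0.83). The effect differed between times by 0.77 (SE 0.14, adjusted p = 0.00062). *COI1* had 27.5, 28.8 and 31.3 RPKM in *acd6-1* at ZT1, against 19.9, 22.1 and 22.4 RPKM in Col-0 (log2 change 0.43, SE 0.08, adjusted p = 0.00022), and its difference between times was 0.39 (SE 0.12, adjusted p = 0.029), which was lost with other scalings and without *acd6-1* ZT13 replicate 1. These were the 2 regulators whose *acd6-1* effect differed between times, where 32.9% of all genes did, of which 74.0% were positive, and 54.4% with median-of-ratios scaling. Which regulators passed depended on the scaling. *JAM2* did not pass here (-0.23, adjusted p = 0.25), but it did with both other scalings, in tests on recovered reads and without *acd6-1* ZT13 replicate 2. The *COI1* difference was lost in tests on recovered reads too.

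**Figure D3:**
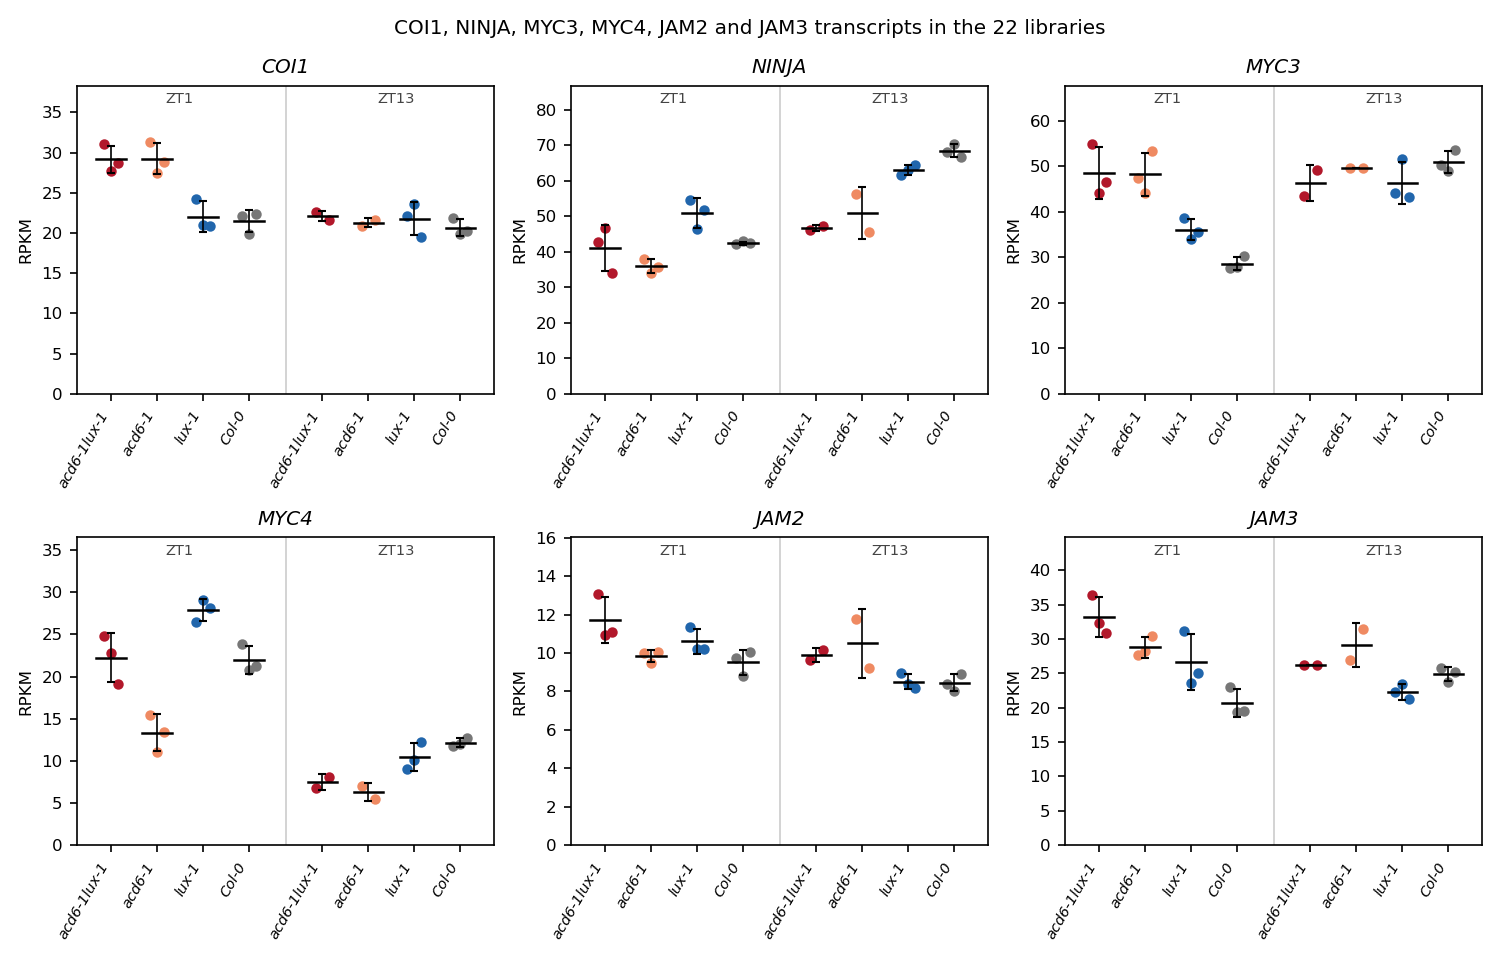
RPKM of *COI1*, *NINJA*, *MYC3*, *MYC4*, *JAM2* and *JAM3* in each library at ZT1 and ZT13, with group means as horizontal bars and the SD as error bars (n = 3, or 2 for *acd6-1lux-1* and *acd6-1* at ZT13). The *acd6-1lux-1* and *acd6-1* points of *COI1* at ZT1 lie above all others of that gene, and *MYC4* lies lower at ZT13 than at ZT1 in every genotype.

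Between ZT13 and ZT1 the median change of all genes was 0.24 in Col-0, 0.15 in *lux-1*, 0.12 in *acd6-1* and 0.06 in *acd6-1lux-1*, and median-of-ratios scaling brought these to 0.02, 0.04, 0.00 and 0.01. Changes between times are therefore also given relative to that median. *MYC4* was lower at ZT13 than at ZT1 in every genotype, by 1.45 on the log2 scale in *acd6-1lux-1* (change -1.45), 0.97 in *acd6-1* (-0.97), 1.34 in *lux-1* (-1.34) and 0.80 in Col-0 (-0.80). Relative to the median of all genes these changes were -1.51, -1.09, -1.50 and -1.03, and all 4 calls passed in the same direction in all 36 other settings.

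*ORA47*, *MYC2* and *JAM1* were higher at ZT13 than at ZT1 in the 2 genotypes with *lux-1*. In *lux-1* the changes were 4.74, 1.38 and 1.66 (4.59, 1.23 and 1.51 relative to the median), and in *acd6-1lux-1* 1.95, 1.53 and 1.76 (1.89, 1.47 and 1.71 relative to the median). In Col-0 *ORA47* (0.29, adjusted p = 0.30) and *MYC2* (0.28, adjusted p = 0.15) did not pass, with values relative to the median of 0.06 and 0.04. They did not pass in *acd6-1* either (-0.21, adjusted p = 0.56, and 0.00, adjusted p = 0.99), with -0.32 and -0.12 relative to the median. *JAM1* rose in Col-0 (0.51, adjusted p = 0.0091, 0.27 relative to the median) and in *acd6-1* (0.47, adjusted p = 0.037, 0.35 relative to the median), calls that were lost with median-of-ratios scaling and in tests on recovered reads, and in *acd6-1* also without *acd6-1* ZT1 replicate 1 or either *acd6-1* ZT13 replicate.

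*MYC3* was higher at ZT13 in Col-0 by 0.81 (adjusted p = 7.7e-07, 0.58 relative to the median) and in *lux-1* by 0.35 (adjusted p = 0.0044, 0.20 relative to the median). It did not pass in *acd6-1* (0.05) or *acd6-1lux-1* (-0.06), with -0.07 and -0.12 relative to the median. *NINJA* was higher at ZT13 in Col-0 by 0.68, in *acd6-1* by 0.49 and in *lux-1* by 0.30, and did not pass in *acd6-1lux-1* (0.19, adjusted p = 0.18). Relative to the median its changes were 0.44 in Col-0, 0.37 in *acd6-1*, 0.15 in *lux-1* and 0.13 in *acd6-1lux-1*. The *lux-1* rises of *MYC3* and *NINJA* were lost with quantile normalization, voom and edgeR. *COI1* fell at ZT13 in *acd6-1* (-0.44, adjusted p = 0.0011) and *acd6-1lux-1* (-0.38, adjusted p = 0.0029) and did not pass in *lux-1* (-0.02) or Col-0 (-0.05). Relative to the median the *COI1* changes were -0.55 in *acd6-1*, -0.44 in *acd6-1lux-1*, -0.17 in *lux-1* and -0.29 in Col-0. With quantile normalization *COI1* passed as lower at ZT13 in Col-0 (-0.36, adjusted p = 0.00083) and in *lux-1* (-0.21, adjusted p = 0.033). It also passed in Col-0 with median-of-ratios scaling, voom, edgeR and DESeq2, and in *lux-1* with voom and edgeR. *JAM3* in Col-0 passed as higher at ZT13 (0.26, adjusted p = 0.032, 0.03 relative to the median), but its change was -0.02 with median-of-ratios scaling and -0.04 with quantile normalization, neither of which passed, and the call was lost without Col-0 ZT1 replicate 2 or 3. *JAM3* fell at ZT13 in *lux-1* (-0.24, adjusted p = 0.059, -0.39 relative to the median) and *acd6-1lux-1* (-0.32, adjusted p = 0.027, -0.38 relative to the median). The first of these calls was lost without *lux-1* ZT1 replicate 1 or *lux-1* ZT13 replicate 1 or 3, and the other without *acd6-1lux-1* ZT1 replicate 1 or either *acd6-1lux-1* ZT13 replicate. *JAM2* fell in *lux-1* (-0.29, adjusted p = 0.017, -0.44 relative to the median). In *acd6-1lux-1* it did not pass (-0.22, adjusted p = 0.11, -0.28 relative to the median), but it passed in 12 of 36 other settings, among them leaving out *acd6-1lux-1* ZT1 replicate 3 (-0.25, adjusted p = 0.098). In Col-0 it did not pass either (-0.15, adjusted p = 0.18, -0.39 relative to the median), but it did with both other scalings and in the tests on recovered reads (-0.42 with median-of-ratios scaling).

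In all, 3 regulators were higher and 3 lower at ZT13 in *acd6-1lux-1* (27.2% and 19.9% of all genes), 2 and 2 in *acd6-1* (31.2% and 15.8%), 5 and 3 in *lux-1* (37.7% and 16.4%), and 4 and 1 in Col-0 (45.6% and 14.4%). With median-of-ratios scaling the share of calls that were higher was 51.2% in *acd6-1lux-1*, 49.7% in *acd6-1*, 54.1% in *lux-1* and 52.4% in Col-0, against 57.8%, 66.4%, 69.6% and 75.9% here.

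The order of the group means set the *lux-1* groups at ZT1 apart for 3 genes. For *MYC2* the lowest groups were *acd6-1lux-1* (121 RPKM) and *lux-1* (128 RPKM) at ZT1, which overlapped with each other but not with Col-0 at ZT1 (242 RPKM), and the 6 other groups overlapped each with its neighbour. *JAM1* had the same lowest groups, *lux-1* (31.0 RPKM) and *acd6-1lux-1* (31.4 RPKM) at ZT1. For *ORA47*, *lux-1* at ZT1 (8.93 RPKM) lay below *acd6-1lux-1* at ZT1 (49.6 RPKM) without overlap, and that below *acd6-1* at ZT13 (187 RPKM), while the remaining neighbours overlapped. *MYC4* ran the other way, with *lux-1* at ZT1 the highest (27.9 RPKM) and *acd6-1* at ZT13 the lowest (6.28 RPKM).

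*MYC2* made up most of the *MYC* transcripts in every group, but less in the *lux-1* groups at ZT1. Its share of the summed RPKM of *MYC2*, *MYC3* and *MYC4* at ZT1 was 58.3% to 65.9% in *acd6-1lux-1* against 81.2% to 86.9% in *acd6-1*, and 64.3% to 70.0% in *lux-1* against 80.5% to 84.2% in Col-0. The share of *JAM1* in the summed *JAM1*, *JAM2* and *JAM3* was 37.9% to 44.9% in *acd6-1lux-1* against 63.7% to 71.7% in *acd6-1*, and 43.4% to 47.7% in *lux-1* against 57.2% to 66.7% in Col-0. Neither pair of groups overlapped in these shares at ZT1. The ratio of *MYC2* to *JAM1* was 3.87 ± 0.31 in *acd6-1lux-1* and 3.88 ± 0.23 in *acd6-1* at ZT1, and 4.15 ± 0.23 in *lux-1* and 4.80 ± 0.16 in Col-0 (SD, n = 3 each). The ratios overlapped between *acd6-1lux-1* and *acd6-1*, and did not overlap between *lux-1* (3.92 to 4.38) and Col-0 (4.61 to 4.91). These shares and ratios follow from the changes of *MYC2* and *JAM1* given above and were not tested.

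**Figure D4:**
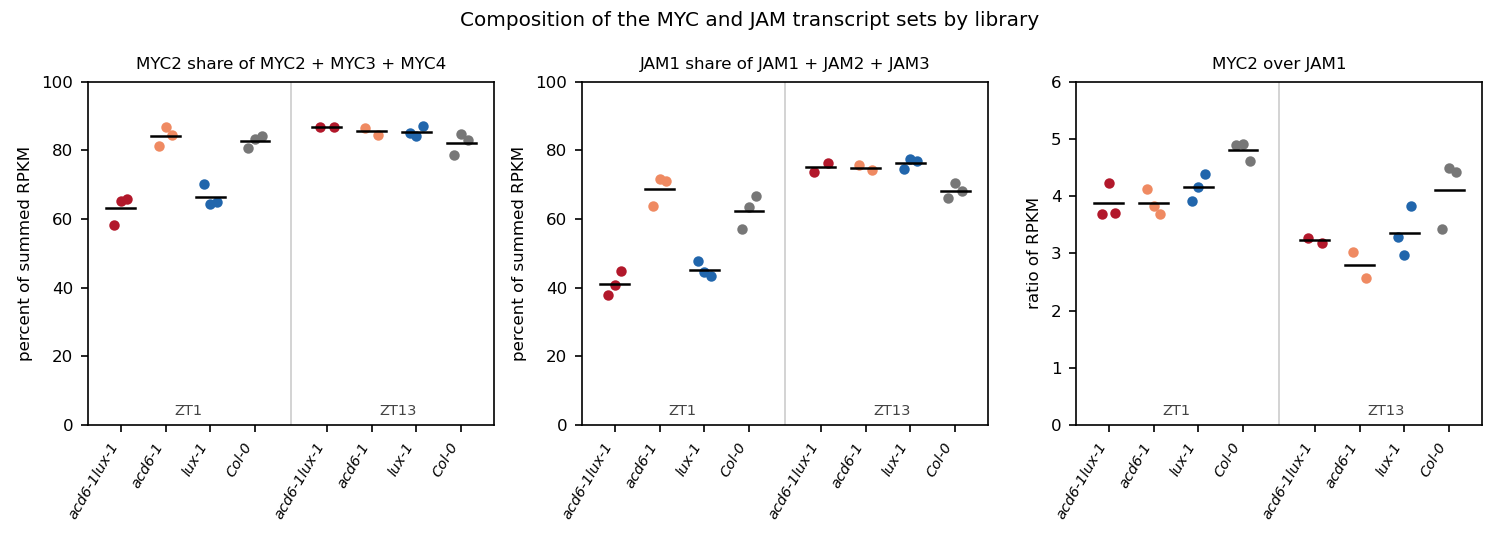
Share of *MYC2* in the summed RPKM of *MYC2*, *MYC3* and *MYC4*, share of *JAM1* in that of *JAM1*, *JAM2* and *JAM3*, and the ratio of *MYC2* to *JAM1*, in each library at ZT1 and ZT13, with group means as horizontal bars. Both shares are lower in *acd6-1lux-1* and *lux-1* at ZT1 than in any other group, and the ratio runs from 2.57 to 4.91 over all libraries.

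Among the 13 *JAZ* repressor genes, 6 were lower in *acd6-1lux-1* than in *acd6-1* at ZT1 and none higher. This is set against 10.9% of all genes called lower and 22.8% called higher. *JAZ1* (log2 change -1.39, adjusted p = 7.4e-05), *JAZ7* (-1.96, adjusted p = 9.4e-05) and *JAZ5* (-1.47, adjusted p = 0.00019) had the smallest adjusted p. In *lux-1* against Col-0 at ZT1, 3 were lower (*JAZ1* -1.31, *JAZ7* -1.72, *JAZ8* -1.42) and 2 higher, set against 4.61% called lower and 13.2% called higher, and at ZT13 none passed in either background. The median of the list was -0.27 in *acd6-1lux-1* and 0.13 in *lux-1* at ZT1, where that of all genes tested was 0.09 and 0.08. In *acd6-1* against Col-0, 7 *JAZ* genes were higher and 2 lower at ZT1, where 37.2% of all genes were higher and 31.0% lower (median 0.48, against 0.03 for all genes). At ZT13, 7 were higher and 1 lower, where 22.3% were higher and 26.5% lower (median 0.45, against -0.06 for all genes).

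The 13 JA biosynthesis genes, which include targets of ORA47, were compared likewise. In *acd6-1lux-1* at ZT1, 7 were lower and 1 higher, where 10.9% of all genes were lower and 22.8% higher (median -0.45, against 0.09 for all genes). The lipoxygenase genes *LOX3* (-1.92, adjusted p = 2.8e-05) and *LOX4* (-2.11, adjusted p = 0.00011) and the ligase gene *OPCL1* (-1.24, adjusted p = 0.00012) had the smallest adjusted p among those that fell. In *lux-1* at ZT1 none of them was lower and 3 were higher, where 4.61% and 13.2% of all genes were (median 0.07, against 0.08 for all genes). These were the lipoxygenase gene *LOX2* (1.10, adjusted p = 0.0041) and the cyclase genes *AOC2* (0.84) and *AOC4* (0.63). None passed at ZT13 in either background. In *acd6-1* 7 of them were higher than in Col-0 and 3 lower at ZT1, set against 37.2% and 31.0% of all genes, with *LOX3* (2.31) and *LOX4* (2.70) among the higher. In the evening 7 were higher and 4 lower, set against 22.3% and 26.5%. The *lux-1* effect at ZT1 was lower in the *acd6-1* background than in the Col-0 background for 5 of these genes, including *LOX3* (-1.47, adjusted p = 0.017), and higher for none. Of all genes, 8.39% were lower and 7.65% higher in this contrast.

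Of 9 response genes of the MYC branch, 5 were higher and none lower in *lux-1* at ZT1, where 13.2% of all genes were higher and 4.61% lower (median 1.05, against 0.08 for all genes). *VSP1* (log2 change 3.11, adjusted p = 0.0057), a vegetative storage protein gene, *TAT3* (1.74, adjusted p = 0.0023) and *CLH1* (1.05, adjusted p = 0.029) were among them. In *acd6-1lux-1* at ZT1 none was higher and 2 were lower, where 22.8% and 10.9% of all genes were (median -0.17, against 0.09 for all genes). These were *ANAC055* (-1.52) and *ANAC019* (-0.998), NAC transcription factor genes known as MYC2 targets. Of 8 genes of the ERF branch, which MYC2 restrains, 4 were higher in *lux-1* at ZT1 (*THI2.1* 4.22, *PDF1.2A* 2.34 and *PDF1.2C* 2.49 had the smallest adjusted p) and 3 lower in *acd6-1lux-1* (*CHIB* -0.76, *ERF1* -0.82, *PR4* -0.92), against the same shares of all genes. The median of these 8 at ZT1 was -0.59 in *acd6-1lux-1* and 1.33 in *lux-1*. In *acd6-1* against Col-0 at ZT1, 7 of the 8 were higher and none lower, where 37.2% and 31.0% of all genes were (median 2.91, against 0.03). At ZT13 that comparison had 3 higher and none lower, where 22.3% and 26.5% of all genes were. At ZT13, 1 of the 8 was higher in *lux-1* and 1 lower in *acd6-1lux-1*, where 2.08% and 0.346% of all genes were. No MYC branch gene passed at ZT13 in either background. *PDF1.2* genes are near copies of each other and can share reads.

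Of 7 *ERF* genes close to *ORA47* in sequence, 4 were lower and none higher in both backgrounds at ZT1, where 10.9% of all genes were lower in *acd6-1lux-1* and 4.61% in *lux-1*. *ERF016* (-3.34, adjusted p = 1.7e-09), *ERF012* (-2.11, adjusted p = 5.5e-09) and *ERF017* (-3.25, adjusted p = 3.3e-07) were the clearest in *lux-1*, and *ERF012* (-1.52), *ERF017* (-3.00) and *ERF016* (-1.93) in *acd6-1lux-1*. The summed level of the 7 at ZT1 was 39.8 to 45.6 RPKM in *acd6-1lux-1* against 139 to 158 RPKM in *acd6-1*, and 20.5 to 21.5 RPKM in *lux-1* against 97.5 to 114 RPKM in Col-0. The touch and wounding list is lower in the same libraries, as given above. At ZT13, 2 of the 7 *ERF* genes were higher and none lower in *lux-1*, where 2.08% of all genes were higher and 1.85% lower. None passed in *acd6-1lux-1* at that time.

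The partners of COI1 and NINJA, 12 genes for the SCF ubiquitin ligase, the TOPLESS family, histone deacetylases and the Mediator subunit MED25, act next to these regulators. In *acd6-1* 10 of the 12 were higher than in Col-0 at ZT1 (*TPL* 0.69, *MED25* 0.79 and *CUL1* 0.48 had the smallest adjusted p) and none lower, set against 37.2% of all genes called higher and 31.0% called lower, and in the evening 7 were higher and 1 lower, set against 22.3% and 26.5%. In *lux-1* at ZT1, 3 were higher (*TPR1* 0.26, *RBX1* 0.23, *CUL1* 0.18), where 13.2% of all genes were, and in *acd6-1lux-1*, 1 was (*TPR1* 0.22), where 22.8% were. With median-of-ratios scaling 6.79% and 12.8% of all genes were higher, and these partner genes were not tested with that scaling. Of the 2 further bHLH genes of the family, *MYC5* was lower in *acd6-1* at ZT1 (-1.32, adjusted p = 5.2e-06) and *bHLH14* at ZT13 (-0.92, adjusted p = 0.021), both at low levels, with highest means of 2.88 RPKM for *MYC5* and 3.50 RPKM for *bHLH14*.

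**Figure D5:**
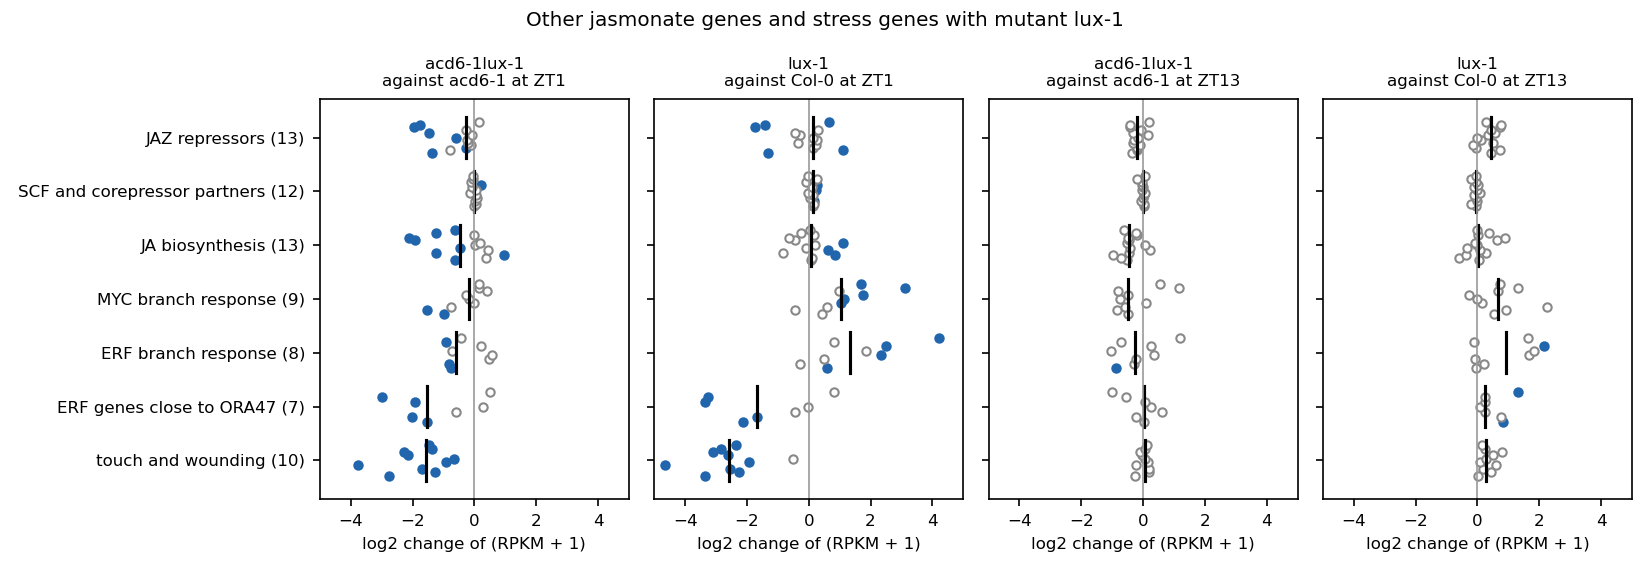
log2 change of (RPKM + 1) of the genes of 7 lists in the 4 comparisons with *lux-1*, with the list size in parentheses. Each point is 1 gene, filled where the adjusted p is under 0.1, and the vertical bar is the median of the list. The touch and wounding genes and the *ERF* genes close to *ORA47* lie to the left at ZT1 in both backgrounds, and nearly all points at ZT13 are open.

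Over the 8 group means of log2(RPKM + 1), *MYC2* and *JAM1* had a Pearson correlation of 0.96, and *MYC4* and *JAM1* one of -0.95. Among 19040 genes with a mean above 1 RPKM, those most like *ORA47* were the cold-response gene *CBF2* (r = 0.98), AT5G51190 (0.98) and AT5G21960, which is *ERF016* (0.98). The gene most like *JAM1* was AT1G77640, which is *ERF013* (0.99), and the gene most like *MYC2* was AT5G40460 (0.98). AT5G66650 was among the 3 most alike for both *MYC2* (0.97) and *JAM1* (0.98). *MYC4* was nearest to the tonoplast aquaporin gene *DELTA-TIP* (0.99), the TCP factor gene *TCP2* (0.99) and the proline transporter gene *PROT1* (0.99). The means share the same libraries, genotypes and times, so these values are a description.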

How the data were processed

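RNA of 22 libraries was sequenced from TruSeq libraries as single reads of 51 cycles, and CASAVA and TAIR10 are listed, with no version, in the submitters' processing notes. For 25218 transcripts the authors deposited RPKM. The total reads, a count of reads per library as deposited in the authors' sample sheet, ranged from 14458079 to 20134373, and mapped reads and the percent mapped are other values that the authors deposited in that sheet. The aligner and the counter are not named there. One column of the table, a ratio of group means (1 column of no sample), is the authors' own comparison and was not used. The genotype written acd6-1-0 in the labels was taken as *acd6-1*. Names of genes come from the TAIR10.1 annotation, which matched 24867 loci.

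The scale was log2(RPKM + 1) and the test that of limma 3.58.1 (R 4.3.3), all libraries in 1 model of 8 groups with a trended prior variance, and p-values were adjusted over 21666 genes. Named list genes are up to 3 per list and comparison with the smallest adjusted p. Genes that were most alike were chosen by Pearson's r over group means. Members, lists and rules were chosen with earlier results of these data known. Dividing out library size and length gave whole reads for 100% of values, within 0.001 of a read, and 97.43% of recovered lengths were multiples of 3, as coding lengths are. Other settings were an adjusted p under 0.05, replicate blocks, each library left out, a fit to the compared libraries alone, a prior without trend, 2 scalings (quantile and median-of-ratios), pseudocounts of 0.5 and 0.1, filters at 1 RPKM and at any value above 0, and voom, edgeR 4.0.16 and DESeq2 1.42.0 on recovered reads. Models were tested on simulated data. Python 3.11.15 served for tables and figures, with matplotlib 3.10.9, pandas 2.3.3 and numpy 2.4.6.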

Additional observations from a re-analysis of the deposited data

Results flagged for a closer look

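Differences between effects passed for 13 combinations of gene and contrast. In the Col-0 background the *lux-1* effect at ZT1 minus that at ZT13 was -1.10 for *MYC2* (adjusted p = 0.0054), 0.46 for *MYC3* (adjusted p = 0.036), 0.54 for *MYC4* (adjusted p = 0.077), -1.16 for *JAM1* (adjusted p = 0.0028), 0.50 for *JAM3* (adjusted p = 0.035) and -4.45 for *ORA47* (adjusted p = 1.6e-07), with all values on the log2 scale. The *ORA47*, *JAM1* and *MYC2* values passed under every alternative, and those of *MYC3*, *MYC4* and *JAM3* were lost with median-of-ratios scaling and in tests on recovered reads, that of *MYC4* also without any 1 of 10 libraries.

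In the *acd6-1* background the same difference was -1.53 for *MYC2* (adjusted p = 0.0018), -1.29 for *JAM1* (adjusted p = 0.0045) and -2.16 for *ORA47* (adjusted p = 0.0024). Without *acd6-1lux-1* ZT1 replicate 3, the library with 60.51% of reads mapped, *NINJA* (0.43) and *MYC4* (0.58) passed too.

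At ZT1 the *lux-1* effect in the *acd6-1* background minus that in the Col-0 background was -0.72 for *JAM1* (adjusted p = 0.048) and 2.21 for *ORA47* (adjusted p = 0.0011). The *acd6-1* effect at ZT1 minus that at ZT13 was 0.39 for *COI1* (adjusted p = 0.029) and 0.77 for *MYC3* (adjusted p = 0.00062). With both other scalings and in tests on recovered reads the *COI1* call was lost and *JAM2* passed.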

How the results depend on the processing

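Across 37 alternative settings, 22 of which left out 1 library, 39 of the 58 passing results of the 9 genes passed in the same direction throughout, 19 were lost in some, and 22 of the 77 others passed in some. For *JAM3* at ZT13 against ZT1 in Col-0 the change turned to -0.017 with median-of-ratios scaling, -0.040 with quantile normalization, -0.065 with voom, -0.067 with edgeR and -0.022 with DESeq2; the cause was not tested. In *lux-1* against Col-0 at ZT1, 3 genes passed with median-of-ratios scaling, voom, edgeR or DESeq2, against 6, and 3 to 7 when 1 library was left out (3 without Col-0 ZT1 replicate 2 or *lux-1* ZT1 replicate 1). At ZT13, 1 gene passed with quantile normalization, only the libraries compared or DESeq2, against 0, and 0 to 1 with 1 library out (1 without *lux-1* ZT1 replicate 1 or *acd6-1* ZT1 replicate 1). For the difference between times in the Col-0 background, 3 passed with median-of-ratios scaling, voom, edgeR or DESeq2, against 6. In the *acd6-1* background it was 3 to 5 with 1 library out. For the difference between backgrounds at ZT1, 1 passed with only the libraries compared, against 2, and 1 to 3 with 1 library out. For the *acd6-1* effect between times it was 1 to 3 with 1 library out, and 1 without *acd6-1* ZT13 replicate 1. Replicate numbers did not pair the samples (correlations of same-numbered deviations from -0.22 to 0.21). With a replicate block, 5 genes by title number and 6 by label code passed in *lux-1* against Col-0 at ZT1, and no count moved by over 1.5 times. Crossing the *acd6-1lux-1* ZT13 numbers, chosen after seeing the data, left 0 calls in *acd6-1lux-1* against *acd6-1* at ZT13.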
